A study of Danio rerio with 29 samples.

Results

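The transcriptomes of P471 bodies, taken from adult zebrafish homozygous for the CRISPR allele CCSER1_P471 of ccser1, were compared with those of bodies of wild-type (WT) siblings, over all 32520 genes of the body count table. The comparison uses 12 of the 29 libraries of the series, chosen by tissue and genotype alone: 6 of P471 bodies and 6 of WT bodies. The 6 S48Y bodies came from adults homozygous for a second CRISPR allele, CCSER1_S48Y*, and shared the fit. The brain comparison set 4 P471 brains against 3 WT brains, in a fit that also held 4 S48Y brains. Mutants were homozygotes raised to adulthood, and WT fish came from an incross of heterozygotes, although it is not stated of which line. The brain had been removed from each body. The labels give neither the nature of the CCSER1_P471 change nor the sex, exact age, pooling or batch of any fish, and each line is a single allele. Nothing says that each library came from its own animal, so p-values here reflect the variation among libraries alone, part of which may be technical.

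The gene ccser1 codes for a coiled-coil, serine-rich protein, and the series title ties it to neurodevelopment and to alcohol. Whole bodies mix many organs, and in an adult female the ovary is among the largest of them. Oocytes store RNA for egg coat (zona pellucida) proteins, for the kinases that hold and release meiosis, and for the division and DNA replication machinery that the early embryo uses before its own genome is active. The liver of an egg-laying female makes vitellogenin, the yolk precursor, while the exocrine pancreas, which in zebrafish lies scattered along the gut, makes digestive enzymes.

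Body libraries held 9450422 to 11674882 counts, and 20240 genes had enough reads to be tested. A gene was called where its adjusted p was below 0.05, changes are log2 differences of P471 minus WT bodies with their standard error (SE), and levels are CPM, the library's share of counts after scaling between libraries. Each group of bodies had 6 libraries, given by their lowest, median and highest value. Markers of the brain and pituitary separated some bodies within groups. The growth hormone gene gh1, made in the pituitary, lay under 1 CPM in P471 bodies 2 and 5 and in WT bodies 1, 2 and 5, and at 4.93 CPM or more in every other body. The 17 tested neuron markers summed to 281 to 444 CPM in those P471 bodies against 268 to 324 CPM in those WT bodies, and to 537 CPM or more elsewhere. Where leaving out these 5 bodies moved the count of a gene list by more than 1.5 times, both counts are given below. Only P471 bodies 1, 3, 4 and 6 and WT bodies 3, 4 and 6 then remained, with all S48Y bodies. For a call lost there, fewer libraries and the content of the bodies left out cannot be told apart.

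In P471 bodies the transcript of ccser1 itself was lower. It had 1.76, 3.02 and 3.64 CPM (lowest, median, highest) in P471 bodies and 2.02, 2.63 and 4.64 CPM in S48Y bodies, against 3.13, 4.60 and 6.51 CPM in WT bodies. The P471 and WT ranges overlapped, and the change was -0.69 (SE 0.24, adjusted p = 0.0341). The call was lost without any 1 of P471 bodies 2, 3 and 6 or WT bodies 1, 2 and 4, and over all 18 fits that left out 1 library the change lay between -0.79 and -0.58. It was lost as well without the 5 bodies low in gh1 (-0.73, adjusted p = 0.132). In P471 brains ccser1 changed by -0.17 relative to WT brains and was not called (adjusted p = 0.666). These reads do not show what the allele does to the protein.

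Genes of the egg coat and the oocyte, except bcl2l10, were almost absent from P471 bodies and far higher in WT bodies. All 36 tested members of the oocyte list were lower, with a median change of -7.74, and their summed level was 39.7, 56.0 and 238.5 CPM in P471 bodies (lowest, median, highest), against 2941, 10162 and 17924 CPM in WT bodies. For scale, 33.1% of all genes tested were called, with 20.7% of all genes lower and 12.4% higher. When the 5 bodies low in gh1 were left out, 17 of the 36 oocyte genes were called lower. The lowest WT body stood far above the highest P471 body, so the groups did not overlap on the sum. The gene bcl2l10 differed little, at 36.5 to 43.0 CPM in P471 bodies and 43.4 to 65.6 CPM in WT bodies. It made up most of the lowest P471 sum, which is therefore not a measure of oocyte RNA left there. The list had 37 members in the table, and 1 (GDF9, an oocyte growth factor) did not pass the filter on low counts. In bulk tissue, fewer oocytes and less RNA per oocyte cannot be told apart.

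**Figure D1:**
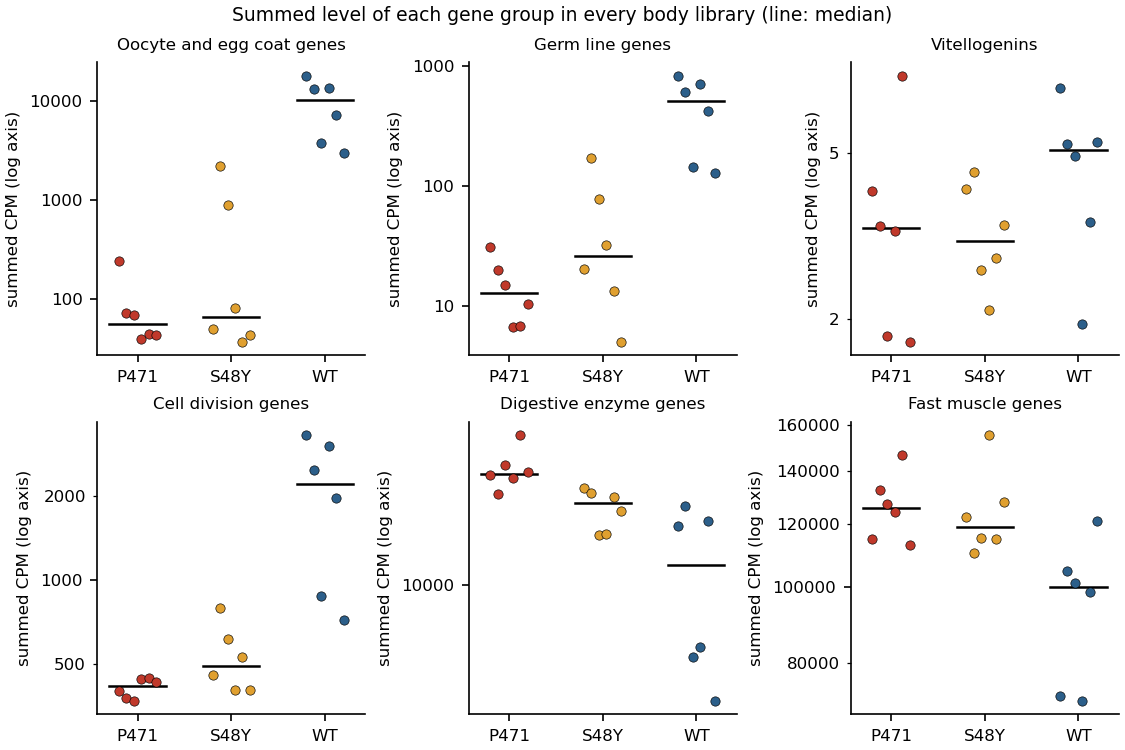
Summed CPM of 5 gene lists and of the vitellogenins in each of the 18 body libraries, on log axes, with P471, S48Y and WT bodies from left to right and a line at each median. Oocyte and germ line sums do not overlap between P471 and WT bodies, vitellogenin sums do, and the digestive enzyme sums of WT bodies form 2 clusters.

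MOS, the kinase that holds the mature oocyte in meiosis, was at 0, 0.295 and 0.642 CPM in P471 bodies and at 6.40, 20.5 and 37.9 CPM in WT bodies (change -6.08, SE 0.75, adjusted p = 3.55e-05). WEE2, the oocyte form of the Wee1 kinase that restrains meiosis, was at 0.201, 0.356 and 1.21 CPM in P471 bodies and at 8.96, 44.9 and 71.8 CPM in WT bodies (-6.41, adjusted p = 6.63e-05). Neither gene overlapped between the groups. The egg coat gene zp3d.1 changed by -5.45 and zglp1, a GATA-like zinc finger gene of the gonad, by -7.43. Genes shared by the germ lines of both sexes moved with them: all 12 tested were lower, with a median change of -5.20. The list had 18 genes in the count table, and the rest did not pass the filter on low counts. Some germ line and oocyte genes passed it through their WT levels, such as NANOS3, at 0 to 0.196 CPM in P471 bodies and 1.28 to 20.9 CPM in WT bodies. For such genes the filter favoured a lower call. Among the 12 germ line genes, DND1 and NANOS3, RNA-binding proteins that protect germ cells, changed by -5.90 and -6.97. SYCP1, a protein of the synaptonemal complex that joins paired chromosomes, changed by -5.50 and PIWIL2, a partner of piRNAs, by -4.43.

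Of 10 tested genes of steroid hormone synthesis 3 were lower, 0 higher and 7 not called, with a median of -0.12. Over all genes tested 20.7% were lower and 12.4% higher. CYP11A1, the side-chain cleavage enzyme that starts steroid synthesis, was at 0, 0.0479 and 0.910 CPM in P471 bodies and at 8.86, 64.7 and 98.6 CPM in WT bodies (-7.95, SE 1.12, adjusted p = 9.95e-05). CYP17A1 changed by -3.70. The hydroxysteroid dehydrogenase gene hsd3b2 was 332-fold lower (95% counting interval 91.6 to 2747), with reads in only 1 P471 body. These 3 genes did not overlap between P471 and WT bodies.

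Vitellogenin genes were low in both groups. They summed to 1.77, 3.30 and 7.65 CPM in P471 bodies and to 1.95, 5.08 and 7.13 CPM in WT bodies. The yolk precursor was thus low in WT bodies whose oocyte genes were high. The list of vitellogenins and genes that answer oestrogen also held zgc:136254, a gene without a descriptive symbol, at 0 to 6.37 CPM in P471 bodies and 94.3 to 459.7 CPM in WT bodies. It changed by -7.55 (SE 1.56, adjusted p = 0.00169) and was the only called member of the 2 tested. Of 13 tested testis genes, 4 were lower and 0 higher in P471 bodies, with a median of -0.08. The 4 were the mitophagy gene SPATA18 (-2.17), the gonadal growth factor gsdf (-1.84), which ovaries express too, TBPL1 (-0.70) and CFAP20 (-0.43), a cilium gene, and 2 testis genes were lower without the 5 bodies low in gh1. Testis-specific insl3 and TSSK6 had no reads in any body. The testis list summed to 35.3, 39.3 and 43.4 CPM in P471 bodies and to 44.4, 58.4 and 61.2 CPM in WT bodies, without overlap. Even so, 9 of its 13 tested genes were not called, DMRT1 and cyp11c1 among them, whose ranges overlapped between the groups. No sex was assigned to any library.

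To set each change beside the oocyte RNA of its library, the mean log2 CPM of the 36 oocyte genes was used as an ovary score. The score does not measure the somatic cells of the ovary. Of 8 genes listed for somatic ovary cells in the count table only 1, NR5A2, was tested, and it was higher in P471 bodies (0.68). Its reads in whole bodies cannot be assigned to the ovary, so its rise gives no reading of somatic ovary cells. The ranges of all 8 overlapped between P471 and WT bodies. The score was -1.83, -1.03 and 1.72 in P471 bodies (lowest, median, highest) and -1.81, -0.72 and 5.06 in S48Y bodies, against 5.24, 7.23 and 8.07 in WT bodies. In the second fit this score was a covariate with 1 slope for all 3 groups, and its change is called the change at equal ovary score. Because P471 and WT bodies did not overlap, that change is an extrapolation along a slope to which the S48Y bodies contribute, 2 of which (S48Y 2 at 5.06 and S48Y 3 at 3.65) lay between the groups. Its SE was a median of 1.91 times the SE without the score among called genes. Oocyte genes themselves cannot be read at equal score, since the score is made of them. No tested gene of the steroid, vitellogenin or testis lists was called at equal score. The steroid median was -0.06 there, and 2 of the 10 genes had a called positive slope on the score. The locus zgc:136254 was at 0.245 (adjusted p = 0.975) and rose with the score (slope 1.15, adjusted p = 2.2e-08). The testis median was -0.14, and 1 of the 13 genes had a called positive slope.

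Without the score, 6696 genes were called in P471 bodies, 2505 higher and 4191 lower, with 547 and 1768 of these changed at least 2-fold. The median absolute change of the called genes was 0.75. At equal ovary score 43 genes (0.212% of those tested) were called, 20 higher (0.0988%) and 23 lower (0.114%), and 1746 had an unadjusted p below 0.05. Of the 43, 42 were also called without the score, with the same sign. The exception was 1 of 2 genes listed as ACTA1 (ENSDARG00000055618), a skeletal muscle actin gene, at -0.49 without the score and -1.99 with it. The slope on the score was called for 438 genes (2.16%), 371 of them rising with the score.

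Losing the call did not always mean losing the change. Of the 6696 genes, 6030 (90.1%) kept their sign at equal score and 666 turned. Changes kept a median of 0.52 of their size, 0.61 among genes higher in P471 bodies and 0.48 among lower ones. In all, 3482 genes (52.0%) kept 0.5 of their change or more. The slope was called positive for 352 of the 4191 lower genes and negative for 41 of the 2505 higher genes. The counts moved with the method: without the 5 bodies low in gh1, 2423 genes were called without the score (753 higher, 1670 lower) and 115 with it, and with the summed oocyte CPM on a linear scale as the score the second count was 591. With only P471 and WT bodies in the fit it was 10. Leaving out 1 library moved it by more than 1.5 times in 4 of 18 fits, to 27 without P471 body 1, 23 without S48Y body 2, 26 without S48Y body 3 and 73 without WT body 6.

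**Figure D2:**
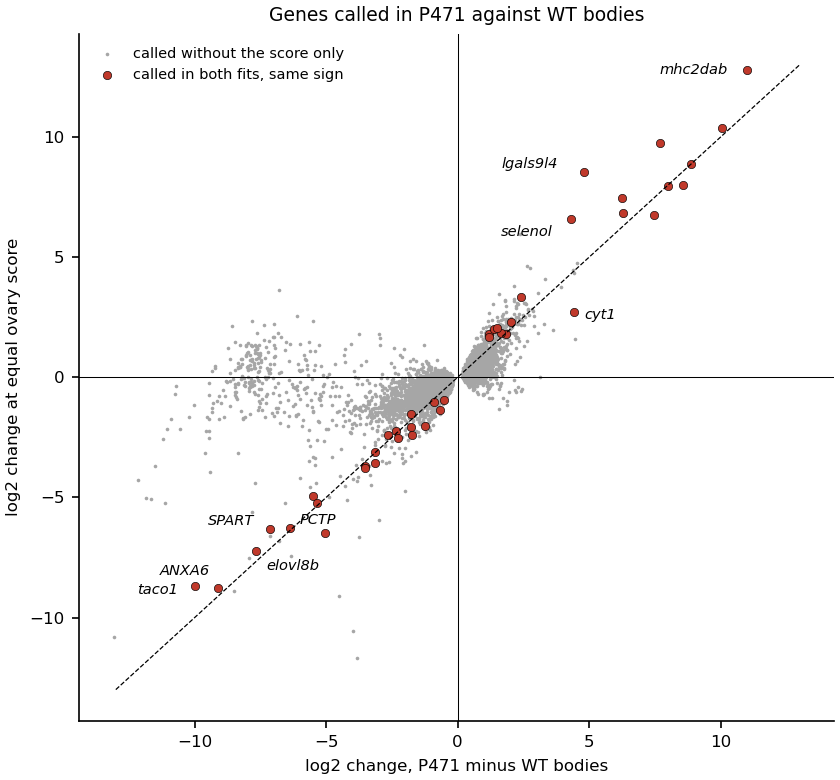
Log2 change of P471 minus WT bodies (horizontal) against the same change at equal ovary score (vertical) for the 6696 genes called without the score, each point a gene, with a dashed line of equality. A cloud of genes below -5 on the horizontal axis lies around 0 on the vertical axis. It includes oocyte genes that make up the score and so lie near 0 by construction. The 42 genes called in both fits (red) were selected on both axes and mostly lie near the line. Exceptions include lgals9l4 (4.82 without and 8.54 with the score) and cyt1 (4.42 and 2.70).

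Cell division and DNA replication genes were lower in P471 bodies. Of 56 tested members 54 were lower and 0 higher, with a median change of -1.96, and of 53 DNA replication genes 50 were lower and 0 higher, with a median of -1.74. The median over all genes tested was 0.05, and 20.7% of them were lower. The summed level of division genes was 369, 416 and 446 CPM in P471 bodies and 720, 2214 and 3311 CPM in WT bodies. The groups did not overlap, and the WT bodies ran in the order of their ovary scores from body 6, the lowest, to body 1, the highest.

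Among division genes aurka, a mitotic spindle kinase, was at 1.42, 1.92 and 2.25 CPM in P471 bodies and at 10.3, 38.2 and 53.2 CPM in WT bodies (-4.12, SE 0.51, adjusted p = 3.35e-05). It also rose with the ovary score across libraries (slope 0.34 per unit, adjusted p = 0.0159). The spindle checkpoint gene bub1ba changed by -2.12, the kinetochore gene ZWILCH by -2.56 and the cytokinesis motor KIF14 by -2.26. Of the replication genes MCM4 and MCM2, subunits of the replicative helicase, changed by -1.78 and -1.33. The chromatin assembly factor chaf1a changed by -2.05 and the single-strand binding protein RPA1 by -1.08. MCM2 had 32.2, 37.4 and 41.9 CPM in P471 bodies and 62.2, 92.9 and 137 CPM in WT bodies, with no overlap.

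At equal ovary score no member of either list was called, and the median changes were -0.87 for division and -0.94 for replication. Among the genes above, MCM2 was at -1.02, MCM4 at -1.13, bub1ba at -1.42 and aurka at -1.40, all uncalled. The slope on the score was called for 8 of the 56 division genes and 1 of the 53 replication genes. Without the 5 bodies low in gh1, 41 division and 47 replication genes were called lower without the score. Between the 2 lines, 2 division and 5 replication genes were lower in P471 than in S48Y bodies, MCM2 (-0.54, adjusted p = 0.0286) and ZWILCH (-1.12, adjusted p = 0.0458) among them, where 3.81% of all genes were lower and 4.30% higher. That contrast held no ovary score. S48Y bodies 2 and 3, with the most oocyte RNA of their group, also had its highest division sums, 795 and 616 CPM. Whether this made the difference was not tested.

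Digestive enzyme genes of the exocrine pancreas were higher in P471 bodies. Of 29 tested, 19 were higher and 1 lower, against 12.4% and 20.7% of all genes tested, with a median change of 1.77. Their summed level was 32842, 42521 and 70191 CPM in P471 bodies and 2248, 13071 and 27970 CPM in WT bodies, without overlap. S48Y bodies summed to 19174, 28918 and 35380 CPM, overlapping both groups, with a median change of 1.03 against WT bodies. Between P471 and S48Y bodies 0 of the 29 were called higher and 2 lower, where 4.30% of all genes were higher and 3.81% lower. The WT bodies fell into 2 clusters: bodies 3, 4 and 6 had 2248 to 4539 CPM, and bodies 1, 2 and 5, the ones low in gh1, had 21603 to 27970 CPM. P471 bodies 2 and 5, also low in gh1, had 32842 and 70191 CPM, the lowest and the highest of their group. Without those 5 bodies 25 of the 29 were higher.

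The chymotrypsin-like protease ctrl was at 1263, 1622 and 2871 CPM in P471 bodies and at 54.2, 328 and 732 CPM in WT bodies (2.34, SE 0.56, adjusted p = 0.00436). The elastase cela1.4 was at 91.3, 107 and 166 CPM in P471 bodies and at 4.33, 19.0 and 47.6 CPM in WT bodies (2.45, adjusted p = 0.000979). For both genes the groups did not overlap. The trypsin inhibitor gene spink4 changed by 1.85 and the chymotrypsinogen ctrb.1 by 1.83, and these changes were 3.28 and 3.46 without the 5 bodies low in gh1. The exception was the elastase ela2l, chosen after its value was seen, at -1.70 (adjusted p = 0.012), which also stood below S48Y bodies (-2.56, adjusted p = 0.00332), and no enzyme was called lower without the 5 bodies low in gh1. Several of these genes are close copies of each other, and how reads were shared among copies is not stated.

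The pancreas genes did not lose size at equal ovary score, where the median was 2.14 although no member was called. Without the 5 bodies low in gh1, 23 of the 29 were called higher at equal score. At equal score ctrl was at 2.45 and cela1.4 at 2.37, and no slope on the score was called for any of the 29. Higher values were also seen for 2 of 11 tested endocrine pancreas genes, the somatostatins sst2 (0.80) and sst1.2 (0.70), and for 1 without the 5 bodies low in gh1. In brains sst1.2 was lower in P471 than in WT libraries (-0.63, adjusted p = 0.0146).

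**Figure D3:**
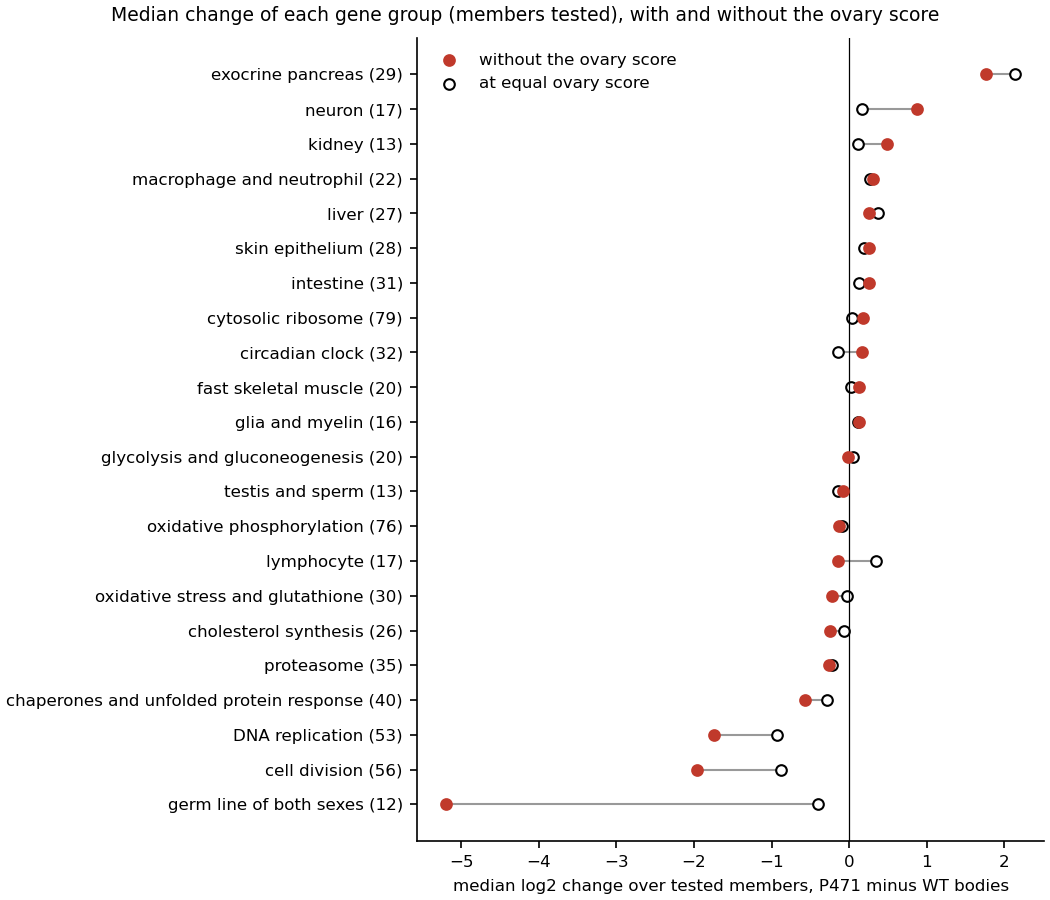
Median log2 change of P471 minus WT bodies for 22 gene lists (number of tested members in brackets), without the ovary score (red) and at equal ovary score (open). Germ line, division and replication medians lie nearer 0 at equal score (-0.40 against -5.20 for the germ line), while the pancreas median does not.

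Genes of protein folding and breakdown were lower. Of 40 chaperone and unfolded protein response genes 25 were lower and 4 higher, with a median of -0.57, where 20.7% of all genes tested were lower and 12.4% higher. The heat shock gene hsp90aa1.1 was at 56.8, 85.4 and 98.9 CPM in P471 bodies and at 134, 241 and 530 CPM in WT bodies (-1.73, SE 0.24, adjusted p = 7.13e-05), and was the only list member still called at equal score (-2.42, adjusted p = 0.0218). HSPA5, the chaperone BiP of the endoplasmic reticulum, changed by -1.72 without the score and by -1.33 with it. The disulfide isomerase PDIA4 changed by -1.72 and -1.13, and the HSP70-HSP90 organiser STIP1 by -0.87 and -0.52. HSPA5 (-0.48, adjusted p = 0.00315) and STIP1 (-0.25, adjusted p = 0.0294) were also lower in P471 brains. Of 35 proteasome genes 21 were lower and 0 higher, by small amounts (median -0.26), with PSMB5 at -0.55 and PSMA4 at -0.39. Without the 5 bodies low in gh1, 13 chaperone and 5 proteasome genes were called lower and 1 chaperone gene higher.

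Ribosomal and mitochondrial genes changed little. The shares over all genes tested were 12.4% higher and 20.7% lower. Of 79 cytosolic ribosome genes 16 were higher and 0 lower (median 0.18), with RPL22L1 at 0.60 and RPS2 at 0.36. The ribosome count was 1 without the 5 bodies low in gh1, and was 9 without WT body 4, 10 without P471 body 1 or 3, 37 without WT body 3 and 39 without WT body 6. Of 76 oxidative phosphorylation genes 19 were lower and 6 higher (median -0.13), among them atp5if1a, the inhibitor of the ATP synthase, at -0.42 and UQCR10 of complex III at -0.62. Without those 5 bodies 1 was lower and 0 higher.

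Muscle, skin, kidney and fibroblast genes were mostly higher where they changed, while bone and cartilage genes went both ways. Over all genes tested 12.4% were higher and 20.7% lower. Of 20 fast muscle genes 6 were higher and 2 lower. The fast myosin myhz2 was at 8712, 11414 and 14147 CPM in P471 bodies and at 3580, 4627 and 8740 CPM in WT bodies (1.06, SE 0.18, adjusted p = 0.000295), with overlap of 1 P471 and 1 WT body. The slow myosin smyhc1 changed by 1.29, fell with the ovary score (slope -0.16, adjusted p = 0.00312) and was at 0.15 at equal score. Of 28 skin genes 6 were higher and 2 lower. The keratin krt91 changed by 0.69, epcam, an epithelial adhesion gene, by -0.74, and the keratin cyt1 by 4.42, taken up further on.

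Of 13 kidney genes 7 were higher and 0 lower. The endocytic receptor gene lrp2b was at 169, 238 and 362 CPM in P471 bodies and at 38.6, 50.4 and 68.7 CPM in S48Y bodies, against 108, 146 and 157 CPM in WT bodies. It changed by 0.84 against WT (adjusted p = 0.00243) and by 2.25 against S48Y (adjusted p = 4.29e-07), and was at 0.07 at equal ovary score. The salt transporter SLC12A3 changed by 0.55. Of 15 fibroblast and collagen genes 4 were higher and 0 lower, with the growth factor receptor PDGFRA at 0.70 and the tenascin tnxba at 1.601. Of 12 bone and cartilage genes 4 were higher, SOST (0.71), an osteocyte inhibitor of bone formation, among them, and 4 lower, PHEX (-0.98), a mineralisation peptidase, among them. Without the 5 bodies low in gh1 the counts were 2 for fast muscle, 2 for skin, 2 for kidney, 2 for fibroblasts and 0 for bone among higher genes, and 1 for bone and 0 for fast muscle and for skin among lower genes. At equal ovary score no member of the fast muscle, kidney, fibroblast or bone lists was called. The skeletal muscle actin gene ACTA1 (ENSDARG00000055618), called lower there, was not matched to the fast muscle list by name. The fibroblast median was -0.07 there, against 0.11 without the score. For fast muscle it was 0.02 against 0.13, for kidney 0.12 against 0.48 and for bone -0.08 against -0.002. In the skin list 1 gene was called higher at equal score, and the median was 0.19 against 0.25.

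Liver and gut markers moved in both directions, where 12.4% of all genes tested were higher and 20.7% lower. Of 27 liver genes 6 were higher and 1 lower. Plasminogen, PLG, changed by 0.74 and the fetuin ahsg2 by -0.70, a call lost in 5 of the fits that left out 1 library. Without the 5 bodies low in gh1 no liver gene was higher. Of 31 intestine genes 7 were higher and 3 lower. The tight junction gene cldn15a was at 13.3, 20.6 and 33.3 CPM in P471 bodies and at 5.91, 8.63 and 12.2 CPM in WT bodies (1.28, SE 0.21, adjusted p = 0.000172), with no overlap. The chitinase chia.4 changed by -4.28 but rose with the ovary score (slope 0.59, adjusted p = 0.00102), was at 0.63 at equal score and was not called without the 5 bodies low in gh1, where 0 intestine genes were lower.

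Immune cell markers were mixed, beside 12.4% of all genes tested higher and 20.7% lower. Of 22 macrophage and neutrophil genes 6 were higher and 2 lower, the lower ones being the cathepsin ctss2.1 at -3.37 and MFAP4 at -2.05. Without the 5 bodies low in gh1 none was higher and 1 was lower. MFAP4 rose with the ovary score (slope 0.44, adjusted p = 0.00953) and was at 1.195 at equal score, and ctss2.1 was at -1.58. None of the 17 lymphocyte genes was called, with 2 rising with the ovary score and a median of -0.15 without the score and 0.35 with it. Of 28 interferon response genes 3 were higher and 1 lower. The antiviral gene RSAD2 changed by 2.23, with the highest WT body inside the P471 range. The guanylate-binding protein gbp3 was at 2.84, 3.91 and 4.60 CPM in P471 bodies and at 16.4, 25.4 and 37.2 CPM in WT bodies (-2.73, SE 0.27, adjusted p = 3.2e-06). The value for gbp3 at equal ovary score was -2.58 (adjusted p = 0.085), and in S48Y bodies it was as low, at 2.71, 3.58 and 7.45 CPM.

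Of 32 tested clock genes 12 were higher and 2 lower, against 12.4% and 20.7% of all genes tested. PER3, a repressor of the clock, was at 311, 345 and 410 CPM in P471 bodies and at 156, 198 and 254 CPM in WT bodies (0.82, SE 0.12, adjusted p = 6.51e-05), without overlap, and was higher in P471 brains too (0.66, adjusted p = 0.0374). The clock-output factor dbpa changed by 0.85. The lower ones were the cryptochrome cry4 (-0.95) and the activator bmal2 (-1.82). The time of day at which fish were taken is not labelled, and without the 5 bodies low in gh1 2 clock genes were higher and 2 lower. The median of the list was 0.17 without the ovary score and -0.14 at equal score, where no clock gene was called.

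Metabolic lists changed in few members, where 20.7% of all genes tested were lower and 12.4% higher. Of 26 cholesterol synthesis genes 5 were lower and 1 higher, with MVK, mevalonate kinase, at -1.28 and the sterol sensor insig1 at -0.68. Leaving out any of 9 single libraries, P471 1, 3, 4 and 6, S48Y 2 and 3 and WT 1, 4 and 5, brought the lower count to 2 or 3. Of 17 fatty acid genes 3 were lower. GPAM, which starts triglyceride synthesis, was at 8.50, 11.7 and 14.5 CPM in P471 bodies and at 23.0, 27.17 and 28.3 CPM in S48Y bodies, against 16.7, 23.4 and 26.9 CPM in WT bodies. It changed by -0.97 against WT (adjusted p = 4.43e-05) and by -1.18 against S48Y (adjusted p = 5.99e-06), and was at -1.19 at equal ovary score (adjusted p = 0.0625). ACLY, the ATP citrate lyase, changed by -0.84. With the 5 bodies low in gh1 left out, 0 cholesterol genes were higher and 1 fatty acid gene was lower.

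Of 34 genes of alcohol and aldehyde metabolism 6 were lower and 1 higher, with a median of -0.11. Neither count exceeded the share over all genes tested, 20.7% lower and 12.4% higher. The aldehyde dehydrogenases aldh3b1 and ALDH18A1 changed by -1.57 and -1.70, and by -0.97 and -0.64 at equal ovary score. Of 30 oxidative stress and glutathione genes 8 were lower and 4 higher, with GPX8 at -1.14 and the glutathione transferase gsta.1 at 1.28. In the growth hormone and IGF axis IGFALS, the acid-labile subunit, changed by 0.88, the receptor ghrb by 0.58 and igfbp1b by -1.35, the only called members of 13. The igfbp1b call was lost in 10 of the fits that left out 1 library. Of the oxidative stress genes 3 were lower and 1 higher without the 5 bodies low in gh1, where 0 alcohol genes were higher and 0 genes of the growth hormone axis were called.

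Of the nerve lists, 1 of 17 neuron genes was called, the neurofilament nefmb (0.37), although the list's median was 0.87. The share called over all genes tested was 33.1%. The neuron sum was 281, 992 and 1238 CPM in P471 bodies and 268, 431 and 881 CPM in WT bodies. Of 16 glia and myelin genes 2 were higher, GFAP (0.41) among them, and cnp, a myelin enzyme, was lower (-1.21). Higher calls without the 5 bodies low in gh1 were 2 neuron genes and 0 glia genes. With the neuron score as a covariate 5887 genes were called in place of 6696. Leaving out the 5 bodies low in gh1 ended the calls of TBPL1, CFAP20, sst1.2, RPS2, UQCR10, krt91, epcam, lrp2b, PHEX, SOST, PLG, chia.4, MFAP4, ACLY, IGFALS, ghrb, igfbp1b, nefmb and GFAP, with the same sign. That fit held fewer P471 and WT bodies, and whether this alone ended the calls was not tested.

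A small set of genes was called both with and without the ovary score. Of the 42 genes called in both fits, 20 were higher in every P471 body than in any WT body and 21 lower. The share of all genes tested that separated in this way was not counted, so these counts have no scale. Of the 42, 29 also differed from S48Y bodies in the same direction (69.0%, against 8.39% of the other genes called in bodies). Over all genes 8.11% were called between P471 and S48Y bodies. Those 42 genes were chosen by fits that hold the same P471, S48Y and WT libraries, so the count of groups that do not overlap and the share that differed from S48Y bodies are descriptions, not separate evidence.

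ANXA6, annexin A6, a calcium-dependent membrane-binding protein, was nearly without reads in P471 bodies. It had 0, 0.137 and 0.287 CPM in P471 bodies and 85.0, 100.1 and 110 CPM in S48Y bodies, against 52.8, 75.8 and 109 CPM in WT bodies. The change was -9.11 (SE 0.33, adjusted p = 2.1e-12) and -8.75 at equal ovary score (SE 0.51, adjusted p = 2.2e-08). S48Y and WT bodies overlapped, and P471 bodies differed from S48Y bodies by -9.43 on the log2 scale (adjusted p = 3.9e-13).

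The fatty acid elongase elovl8b had 3 reads over all P471 bodies and was 253-fold lower (95% counting interval 86.2 to 1228), with 5.38, 6.83 and 8.31 CPM in S48Y bodies and 5.93, 13.3 and 16.2 CPM in WT bodies. The mitochondrial translational activator taco1 had no reads in P471 bodies and 4.43, 11.7 and 18.04 CPM in WT bodies, at least 246-fold lower if up to 3 counts over the group are allowed for. In brains taco1 was not called (-1.06, adjusted p = 0.764), at 0 to 9.14 CPM in P471 and 0.129 to 12.3 CPM in WT libraries. PCTP, a phosphatidylcholine transfer protein, had 1 read in P471 bodies and 1.04, 2.33 and 4.14 CPM in WT bodies, 143-fold lower (25.4 to 5702). SPART, the spartin gene, was at 0, 0.0442 and 0.506 CPM in P471 bodies, 0.677, 5.90 and 13.8 CPM in S48Y bodies and 18.7, 21.0 and 30.2 CPM in WT bodies. In SPART the S48Y bodies lay between the others, and all 4 genes were called between P471 and S48Y bodies.

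Of 2 genes listed as GPI, glucose-6-phosphate isomerase of glycolysis, one (ENSDARG00000103826) was at 1.59, 2.404 and 2.94 CPM in P471 bodies and at 62.8, 68.4 and 82.5 CPM in S48Y bodies, against 19.99, 28.5 and 31.9 CPM in WT bodies. All 3 groups were apart, and P471 bodies changed by -3.51 against WT (SE 0.16, adjusted p = 6.88e-11) and by -4.92 against S48Y (adjusted p = 2.57e-13). The other (ENSDARG00000012987) was at 160, 172 and 188 CPM in P471 bodies and at 166, 234 and 243 CPM in WT bodies (-0.32, adjusted p = 0.011), a call lost without the 5 bodies low in gh1. How reads were shared between the 2 copies is not stated, so their counts are uncertain.

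MYOF, the membrane-repair protein myoferlin, changed by -2.33 without the score and -2.22 with it, and SMYD1, a methyltransferase of muscle myosin assembly, by -1.24 and -2.04. GSTM3, a glutathione transferase, changed by -3.15 and -3.59, and CTH, cystathionine gamma-lyase of the transsulfuration pathway, by -2.64 and -2.38. USP48, a deubiquitinase, changed by -1.76 and -1.54. Of these MYOF, GSTM3 and CTH were also lower than in S48Y bodies (-2.11, -1.03 and -1.17), and the other two were not called there. The plasminogen activator PLAU (-3.52), the kainate receptor subunit GRIK1 (-3.13), the complement gene c3b.1 (-1.78), filamin A, flna (-0.89), mdm2, which restrains p53 (-0.68), and FXR2 (-0.53) were also lower in both fits, and were chosen after their values were seen. Among these last 6, GRIK1, c3b.1 and flna were lower than in S48Y bodies, and PLAU, mdm2 and FXR2 were not called there.

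Of the higher genes with a descriptive symbol, the smallest p belonged to mhc2dab, a beta chain of MHC class II, which presents antigen to T cells. It was at 24.8, 88.7 and 134 CPM in P471 bodies and at 0, 0.147 and 0.349 CPM in S48Y bodies, while WT bodies held 2 reads in all. It was 2828-fold higher in P471 than in WT bodies (95% counting interval 782.5 to 23359), and 8.92 higher on the log2 scale than in S48Y bodies (adjusted p = 8.72e-10). The alpha chain mhc2daa was at 48.8, 105 and 140 CPM in P471 bodies, 24.6, 29.8 and 35.5 CPM in S48Y bodies and 34.4, 40.3 and 44.9 CPM in WT bodies (1.39, SE 0.18, adjusted p = 3.6e-05), again without overlap. Genes of this family resemble one another, and how reads were shared among them is not stated. Without such a symbol, si:ch211-121a2.2, chosen after its value was seen, had a smaller p (7.71, adjusted p = 2.21e-10), with 28.5 ± 11.9 CPM in P471 bodies and 0.122 ± 0.09 CPM in WT bodies (SD, n = 6 each).

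Among the others that were higher, GFM2, a mitochondrial factor that recycles ribosomes, was at 19.8, 22.3 and 25.3 CPM in P471 bodies and at 5.80, 6.08 and 7.79 CPM in S48Y bodies, against 4.73, 10.3 and 12.7 CPM in WT bodies (1.19, adjusted p = 6.67e-05). The calpain capn2l was at 22.2, 31.2 and 38.0 CPM in P471 bodies and at 5.61, 7.06 and 9.60 CPM in S48Y bodies, against 6.23, 7.65 and 12.7 CPM in WT bodies (1.83, adjusted p = 2.27e-06). For both genes P471 bodies overlapped with neither group. The selenoprotein gene selenol changed by 4.33, with 2.03, 3.38 and 8.04 CPM in P471 bodies and at most 0.522 CPM in any WT body.

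Other rises were seen in the second line as well. The keratin cyt1 was at 42.8, 65.5 and 109 CPM in P471 bodies and at 42.3, 118 and 144 CPM in S48Y bodies, against 1.70, 3.02 and 5.02 CPM in WT bodies (4.42, SE 0.39, adjusted p = 2.14e-06), and was at 2.70 at equal ovary score. The finTRIM gene ftr35 changed by 2.43, and S48Y bodies had 1.34, 2.45 and 4.45 CPM of it. The galectin lgals9l4 was 34.7-fold higher (95% counting interval 11.6 to 171). Its S48Y level rested mainly on body 3, at 7.86 CPM, with at most 0.8 CPM in the other S48Y bodies. None of these 3 was called between P471 and S48Y bodies, which does not show that their levels were equal.

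How firmly a gene stood at equal ovary score differed. With only P471 and WT bodies in the fit, which leaves no library between the groups, ANXA6 (-7.12, adjusted p = 0.00778), the GPI gene (-4.09, adjusted p = 0.0375) and mhc2dab (13.18, adjusted p = 0.000776) kept their calls, the other named genes with a value there lost theirs with the same sign, and lgals9l4 had no value. Leaving out 1 library ended the call at equal score in 16 of the 18 fits for selenol and c3b.1, in 14 for lgals9l4 and flna, in 11 for USP48 and GRIK1 and in 10 for CTH. It did so in 9 fits for cyt1 and mdm2, in 8 for PLAU, in 7 for capn2l and in 4 for FXR2. The call was lost in 3 fits for hsp90aa1.1, in 2 for SPART, and in 1 each for GFM2 (without S48Y body 2) and ftr35 (without S48Y body 3). In none of the 18 fits did ANXA6, the GPI gene, elovl8b, taco1, PCTP, MYOF, GSTM3, SMYD1, mhc2dab or mhc2daa lose the call. The form of the covariates mattered too: with a testis score added the calls at equal score of ftr35, hsp90aa1.1, capn2l, USP48, mdm2, CTH, PLAU, flna, lgals9l4, selenol and GRIK1 were lost, 11 of 26 named genes. With the log2 of the summed oocyte CPM as the score 10 of the 26 lost it, capn2l, USP48, cyt1, mdm2, CTH, flna, lgals9l4, selenol, GRIK1 and c3b.1. When the 5 bodies low in gh1 were left out, SPART, FXR2, USP48, flna, lgals9l4 and c3b.1 lost the call at equal score, and lgals9l4 lost it without the score too.

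**Figure D4:**
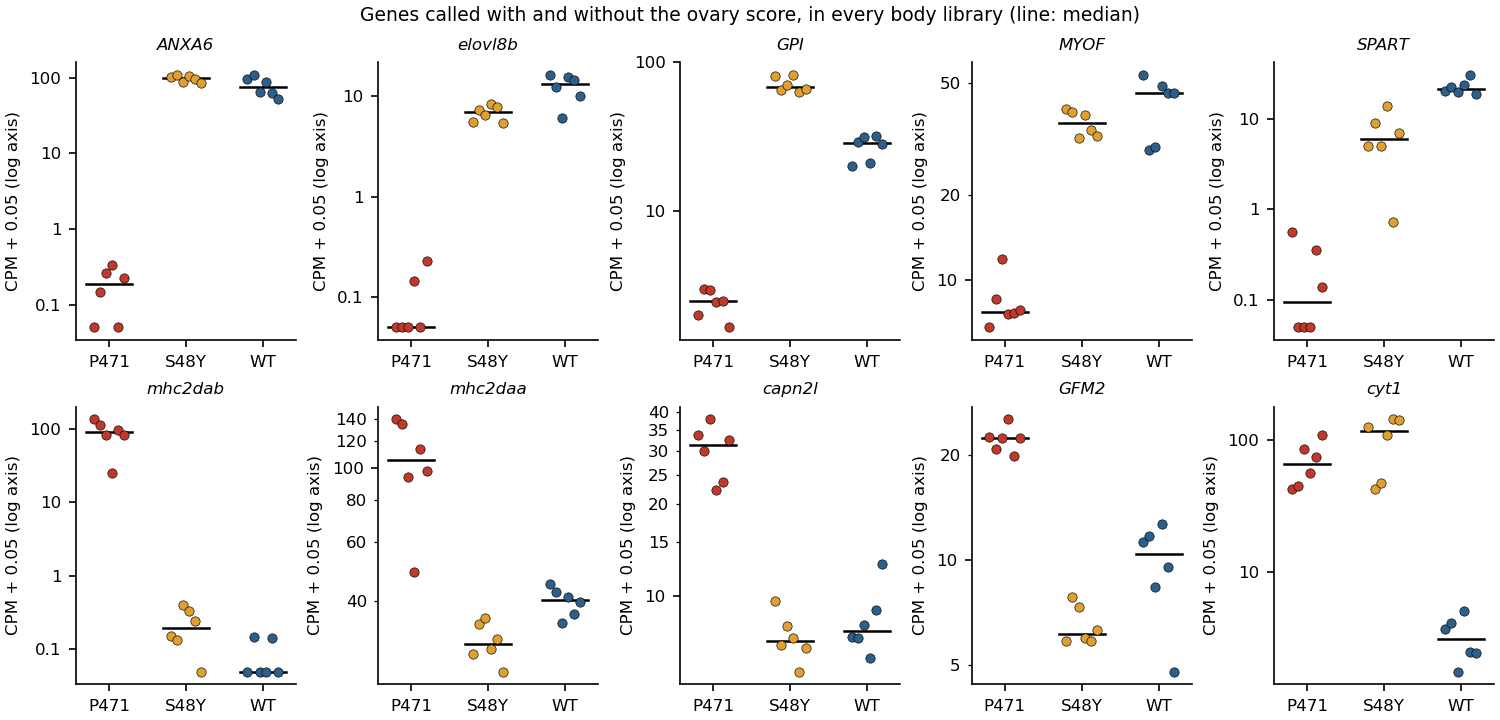
CPM (plus 0.05, log axes) of 10 genes called with and without the ovary score in each of the 18 body libraries, with P471, S48Y and WT bodies from left to right and a line at each median. The 5 genes above are lower and the 5 below higher in every P471 body than in any WT body, and among these 10 genes S48Y bodies overlap P471 bodies only for cyt1.

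Among the 10 genes of lowest adjusted p in each direction, counting only genes with a descriptive symbol, 7 higher ones were not called at equal ovary score. They were IQSEC1 (1.76), a guanine exchange factor for ARF6, the adhesion gene FBLIM1 (1.31), mkrn1 (1.03), a ubiquitin ligase, TTC14 (0.88), DEDD2 (0.85), SLC16A1 (0.77), a lactate and pyruvate carrier, and DUSP7 (0.73), a phosphatase of ERK. At equal score they kept the sign, between 0.60 (SLC16A1) and 1.27 (IQSEC1). Of the lower ones, cdca7b (-2.81), a gene of the cell cycle, was not called there either, at -2.19.

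Brains of the same line, in other libraries without an ovary, gave a separate measure. Of 18733 genes 1895 were called in P471 brains (10.1%), 923 higher (4.93%) and 972 lower (5.19%). Of the 6696 genes called in bodies 5664 were tested in brains and 378 of these were called with the same sign (6.67%), while 160 were called with the opposite sign. Among 11529 genes tested in brains but not called in bodies, 688 were called with the same sign (5.97%) and 512 with the opposite one. The 378 genes made up 19.9% of the genes called in brains. Of the 42 genes called in both body fits 27 were tested in brains and 6 were called there, all with the same sign (22.2%). The labels do not say whether brains and bodies came from the same fish, and the count in brains was 1224 without P471 brain 1, 1075 without P471 brain 3, 1128 without WT brain 2, 1060 without WT brain 3 and 1186 with only P471 and WT brains in the fit.

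Of those 6, 5 have symbols. ANXA6 was at 0 to 0.335 CPM in P471 brains and at 11.1 to 30.2 CPM in WT brains (-7.09, adjusted p = 7.71e-06). PCTP had no reads in P471 brains and 2.31 to 3.40 CPM in WT brains, and SPART had 3.66 to 9.04 CPM against 24.7 to 46.1 CPM (-2.57, adjusted p = 0.000836). All 3 were lower in brains without overlap. GFM2 had 66.0 to 78.0 CPM in P471 brains and 15.2 to 16.1 CPM in WT brains (2.19, adjusted p = 7.48e-08), and mhc2dab 59.16 to 166 CPM in P471 brains and 0 to 0.514 CPM in WT brains (8.63, adjusted p = 0.000166). S48Y brains held 11.2 to 14.5 CPM of GFM2 and at most 0.253 CPM of mhc2dab.

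**Figure D5:**
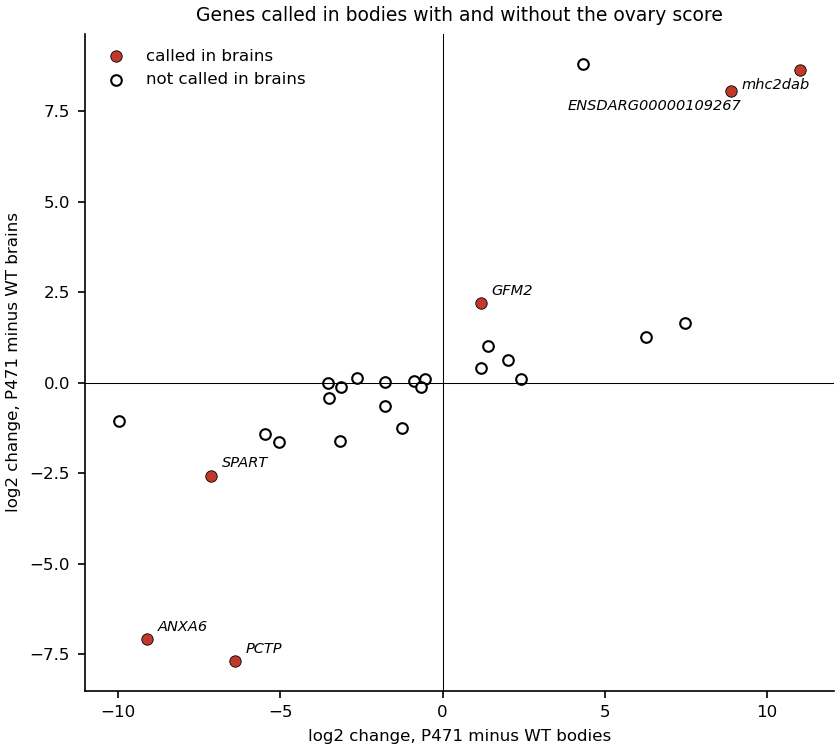
Log2 change in P471 minus WT bodies (horizontal) against P471 minus WT brains (vertical) for the 27 genes called in both body fits and tested in brains, filled where called in brains. The 6 called genes lie in the quadrants of like sign, and the uncalled gene at the top is selenol (8.81, adjusted p = 0.0753).

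Genes called in bodies and brains with the same sign included some that rose with the ovary score in bodies. The thioesterase genes PPT2 and ppt2a.3 changed by -8.16 and -4.65 in bodies, rose with the ovary score (slopes 0.86 and 0.68) and were at -1.74 and 0.56 at equal score. In brains they were at 0 to 0.106 and 0 to 0.212 CPM in P471 libraries and at 7.46 CPM or more and 7.96 CPM or more in WT libraries. The zinc finger gene znf1156 had no reads in P471 bodies and was at least 87.7-fold lower there, and it changed by -6.33 in brains. The lactate exporter SLC16A3 changed by -2.33 in bodies and -0.74 in brains, and CAP1 by -1.29 and -2.73.

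Of those that were higher in both tissues, WDR81, a gene of endosome maturation, had 26.1, 32.3 and 37.9 CPM in P471 bodies and 9.65, 17.5 and 20.2 CPM in WT bodies (0.98, adjusted p = 0.000193), and changed by 1.02 in brains (adjusted p = 3.2e-05). It was also higher than in S48Y bodies (0.77, adjusted p = 0.00449). The IGF receptor IGF1R changed by 0.76 in bodies and 0.76 in brains, chondromodulin, cnmd, by 1.53 and 2.82, the histone methyltransferase kmt2bb by 0.56 and 0.46, and periaxin, prx, by 0.82 and 1.51. At equal ovary score these 5 were uncalled, between 0.07 (kmt2bb) and 0.69 (IGF1R), and kmt2bb and prx lost their body calls without the 5 bodies low in gh1.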

How the data were processed

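The body and brain tables hold raw read counts per gene as deposited by the authors, for 32520 genes in 18 body and 11 brain libraries, and every library column was used. Libraries were made from polyadenylated RNA and read as 150 bp pairs, per the labels' protocols. STAR, GRCz11 and GRCz10 are named in the submitters' processing notes without their roles. Neither the counting program, nor the annotation, nor any use of strand is given in the sources used here. Symbols were matched for 29201 gene IDs.

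Counts of the 18 bodies were fitted together in edgeR 4.0.16 (R 4.3.3) after its default expression filter and TMM scaling, with the robust quasi-likelihood F test and Benjamini-Hochberg adjustment over all genes tested. An adjusted p below 0.05 was a call. Brains were fitted separately. SE is the absolute log2 change over the square root of F. The ovary score was the mean log2 CPM (prior count 2) of 36 oocyte genes. Body totals were 9450422 to 11674882 counts, and the biological coefficient of variation was 0.292. Folds against few reads used counts summed over a group, with a floor of 3 counts and exact 95% intervals, which cover counting error only. The fits were also run on simulated counts. In the run with the ovary score only the oocyte genes followed it, so that run does not check other genes whose level follows the score.

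Named genes were ccser1, the top 10 in each direction by adjusted p, the top 8 in each direction at equal ovary score among genes called in both fits, the top 8 in each direction called alike in bodies and brains (ranked by the worse adjusted p), and as many as 4 of each list, ranked by p. Genes lacking a proper symbol were skipped, and 1 gene is not reported here. Members and gene lists were chosen with earlier results of these data known. Alternatives were DESeq2 1.42.0, RLE factors, other filters, other ovary scores, a replicate block, fewer groups and left-out libraries. No 2 bodies of a group were duplicates within sampling noise.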

Additional observations from a re-analysis of the deposited data

Results flagged for a closer look

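In 332 groups of 6 libraries, 23 held a library far from the other 5, where chance gives about 1 in 20. P471 body 1 was the one that stood apart most often. Its oocyte genes summed to 238.5 CPM, against 39.7 to 71.3 CPM in the other P471 bodies. In the same body WEE2 was at 1.21 CPM, zglp1 at 0.708 CPM, PPT2 at 1.01 CPM, CYP11A1 at 0.910 CPM, hsd3b2 at 0.202 CPM and PLAU at 2.12 CPM, each above the others, while SMYD1 was at 21.4 CPM and flna at 113.7 CPM, below the others.

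Among other P471 bodies, mhc2dab was at 24.8 CPM in body 4, against 81.2 to 134 CPM in the other P471 bodies. The same body had USP48 at 8.33 CPM, above the others, and chia.4 at 7.85 CPM, below them. In P471 body 5 DEDD2 was low at 66.5 CPM, SLC16A1 was high at 82.3 CPM, and PCTP was at 0.101 CPM where the others had no reads. P471 body 2 was high for mkrn1 at 61.2 CPM, and P471 body 3 was low for GSTM3 at 0.535 CPM.

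Among WT bodies, body 6 was high for gsta.1 at 82.7 CPM and low for the summed testis genes at 44.4 CPM. It was also low for NR5A2, at 4.04 CPM, the only gene of the ovary somatic list that passed the filter on low counts. NR5A2 was called higher in P471 than in WT bodies (0.68). RSAD2 was high in WT body 2 at 5.92 CPM, c3b.1 was high in WT body 5 at 188.9 CPM, and FXR2 was low in WT body 1 at 146.6 CPM.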

How the results depend on the processing

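The 6696 genes called in P471 against WT bodies lay between 5527 and 7390 under RLE factors, no filter, a filter of 1 CPM, DESeq2, a fit of 2 groups and a neuron covariate, and between 5335 and 8464 when 1 library was left out. The count was 863 when a change of at least 2-fold was tested, and 2423 without the 5 bodies low in gh1. The 43 genes called at equal ovary score were 155 with DESeq2, 10 with only the 2 groups, 591 with the linear sum as the score, 28 with a testis score added, 103 with a neuron score added and 115 without the 5 bodies low in gh1, and lay between 23 and 73 when 1 library was left out. The change of ccser1 was -0.73 (adjusted p = 0.132) without those 5 bodies, and lay between -0.79 and -0.58 when 1 library was left out. The brain count of 1895 was 1186 with only the 2 groups and lay between 1060 and 2590 when 1 library was left out. The neuron covariate and the 5 left-out bodies were chosen after seeing the data. Same-numbered P471 and WT bodies had residual correlations of 0.0835 to 0.478, positive in all 6 pairs. The numbers were not taken as a pairing, since the labels tie them to no shared fish, litter or day, 1 of the 6 correlations was below 0.1 and not every body correlated best with its own number. With the replicate block 6669 genes were called in bodies, 15 at equal ovary score, 1445 between P471 and S48Y bodies and 1544 in brains, and ccser1 was at -0.72. The block also ended the calls at equal score of 20 of 26 named genes, the exceptions being ANXA6, the GPI gene, mhc2dab, elovl8b, taco1 and SMYD1. The cause of these shifts was not tested. No result reversed under the alternatives run. The P471 and WT ovary scores did not overlap, which limits every value at equal score.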

Other observations

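Several genes known only by clone or locus names were called with and without the ovary score; they lie outside the rule for named genes and were chosen after their values were seen. The locus zgc:171534 had 9.10, 11.2 and 21.6 CPM in P471 bodies (lowest, median, highest) and no reads in S48Y or WT bodies, at least 267-fold higher than in WT bodies if up to 3 counts over the group are allowed for. ENSDARG00000109267 changed by 8.89 in P471 bodies and by 8.05 in P471 brains. The locus si:dkey-120c6.5 changed by -5.36 in bodies.

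Of the 42 genes called in both body fits, 23 could be placed on a chromosome of the GRCz12tu gene table by name, and 2 of these (8.70%), elovl8b and mhc2daa, shared the chromosome of ccser1. Of 14281 tested genes placed, 611 (4.28%) did so.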
